A study of Mus musculus with 12 samples.

Results

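Hair keratins and keratin-associated proteins are the structural proteins of the growing hair and of the sheath that moulds it. The genes described here are the rows of a mouse skin count table whose symbol starts with Krtap and a digit, or is one of 20 named hair follicle keratins, and that held at least 10 counts summed over 12 libraries. Of 33539 rows, 77 matched and 75 reached that sum: 56 keratin-associated protein genes (Krtap) and 19 keratins. Krtap20-2 and Krtap13 fell below it, and Krt85 was not analysed here. These rows were chosen by name and by that summed count, without use of the groups, although earlier results of these data were known.

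The libraries were made from polyadenylated RNA of mouse skin, and imiquimod (IMQ), a Toll-like receptor agonist, is used on mouse skin as a model of psoriasis. The groups were 3 libraries of wild-type control skin, 5 of IMQ-induced skin of wild-type mice, and 4 of IMQ-induced skin of mice deficient for Tcn2 (Tcn2-/-), the gene of the vitamin B12 carrier transcobalamin. The third group therefore shares the IMQ induction with the second. The sources used here give no strain, age, body site, duration of induction, stage of the hair cycle or shaving, nor whether each library was 1 animal, so p-values measure the spread between these samples. Sample titles carry the word muscle although tissue and source are given as skin.

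Hair is made in cycles. During growth (anagen), matrix cells at the base of the follicle divide and rise into concentric layers; in regression (catagen) and rest (telogen) they do not. The inner root sheath uses type I keratins Krt25 to Krt28 paired with type II keratins Krt71 to Krt73, and it hardens before the shaft does. In the human follicle the shaft starts with KRT35 and KRT85 just above the matrix, KRT32 and KRT82 mark the cuticle, and cortex keratins such as KRT31, KRT34, KRT81, KRT83 and KRT86 follow higher up. Krtap proteins are made last and fill the space between the keratin filaments, which they crosslink through cysteine. Hair keratin RNA in whole skin is therefore a common readout of growing follicles, but in a bulk sample fewer cells of a type and less RNA per cell cannot be told apart.

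Promoters of members whose RNA moved together over the libraries are shown first, with Krt84, which did not follow them. The sequences are the 150 bases before the transcription start in RefSeq's promoter table of build GRCm38.p6, read 5′ to 3′ on the strand of the gene. Capitals mark the TATA box letters TATAAA and, where present, the LEF1-type letters CTTTGAA or the HOX13-type letters TTTATNG on either strand. In Krt25 the TATA box overlaps a HOX13-type match on the opposite strand.
Krt25 (chr11:99322952-99323101, minus strand): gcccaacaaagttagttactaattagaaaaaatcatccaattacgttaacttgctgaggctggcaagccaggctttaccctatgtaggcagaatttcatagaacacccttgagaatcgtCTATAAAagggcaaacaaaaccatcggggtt
Krt71 (chr15:101743098-101743247, minus strand): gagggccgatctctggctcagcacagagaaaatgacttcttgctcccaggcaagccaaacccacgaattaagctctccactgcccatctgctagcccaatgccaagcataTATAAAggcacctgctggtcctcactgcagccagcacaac
Krt34 (chr11:100041555-100041704, minus strand): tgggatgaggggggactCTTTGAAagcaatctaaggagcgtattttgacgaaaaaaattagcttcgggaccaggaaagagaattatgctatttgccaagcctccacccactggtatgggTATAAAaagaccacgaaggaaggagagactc
Krtap4-1 (chr11:99628240-99628389, minus strand): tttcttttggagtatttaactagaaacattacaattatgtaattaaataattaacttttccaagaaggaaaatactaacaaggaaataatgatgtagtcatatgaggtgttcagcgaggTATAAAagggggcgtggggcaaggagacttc
Krtap8-1 (chr16:89487953-89488102, minus strand): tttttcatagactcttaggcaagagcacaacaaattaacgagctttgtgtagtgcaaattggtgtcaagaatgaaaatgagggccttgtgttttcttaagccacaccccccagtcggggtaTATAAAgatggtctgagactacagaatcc
Krt84 (chr15:101532821-101532970, minus strand): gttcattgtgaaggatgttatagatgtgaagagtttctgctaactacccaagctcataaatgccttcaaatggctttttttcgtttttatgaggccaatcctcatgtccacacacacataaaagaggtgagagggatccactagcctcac

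The TATA box begins 31 bases before the start in Krt34 and Krtap4-1, 30 in Krt25, 29 in Krtap8-1 and 40 in Krt71. No motif searched lies in the Krt84 window. Of the 75 members, 63 had an entry in the promoter table. Over the 250 bases before the start, TATAAA on either strand was present in 81.0% of these 63 and in 12.4% of all 32851 promoters. On the sense strand 45 to 21 bases before the start, a window chosen after the sequences were seen, it was present in 61.9% and 2.14%. CTTTGAA was found in 17.5% of member promoters against 4.46% of all, and TTTATNG in 23.8% against 9.81%. TTTATNG was in 8 of 14 keratin promoters (57.1%) and 7 of 49 Krtap promoters (14.3%). On the opposite strand it reads CNATAAA, so a TATA box after a C is scored as both motifs. This was so in Krt25, Krt26, Krt73 and Krtap29-1, and the TATA and TTTATNG shares are therefore not separate. Many of these promoters belong to tandem copies, so they are not independent, and a match of letters is a description, not a binding site.

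The genes lie in 6 clusters. In the coordinates of the count table (GRCm39), chromosome 11 holds 34 of them between 99206342 and 99996452, with 11 type I keratins on both sides of 23 Krtap genes. Chromosome 15 holds the 8 type II keratins between 101356942 and 101710781, and chromosome 16 holds 23 Krtap genes between 88407593 and 89368071. The other 10 Krtap genes lie on chromosomes 7 (5), 10 (3) and 1 (2). Proteins were translated from the GENCODE M21 coding sequences, available for 74 members, and their composition was used to define the Krtap classes. Median cysteine content was 6.9% in type I and 6.5% in type II shaft keratins, against 2.0% and 1.7% in the sheath keratins. Among the Krtap proteins, 21 had at least 30% cysteine and are called ultrahigh-sulfur (median 37.7%). A further 14 with at least 35% glycine plus tyrosine are called high-glycine-tyrosine (median 63.5%). The remaining 20 are called high-sulfur, although their cysteine ran from 4.0% to 29.8% (median 20.2%). Krtap7-1 is among them, with 9.2% cysteine and 29.9% glycine plus tyrosine. Krtap19-9a had no protein and stayed unclassed. The order of these rules was swapped after the compositions were seen, which moved Krtap5-2, Krtap5-3, Krtap28-10 and Krtap28-13 to the ultrahigh-sulfur class.

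Library totals ran from 16182324 to 18503487 counts, and 3 counts corresponded to 0.165 to 0.185 CPM (CPM, the count scaled to library size with TMM factors). A set of 9 general skin genes summed to 6751 to 65190 CPM, lowest in control replicate 1. Skeletal muscle genes (25 listed) summed to 3980 to 44180 CPM, so muscle RNA was in every library. Tcn2 itself stood at 19.9, 75.8 and 85.8 CPM in the controls, 66.8 to 140.8 CPM in the IMQ group and 1.90 to 5.58 CPM in the Tcn2-/- IMQ group, whose libraries were all lower than all others. Control replicate 1 and Tcn2-/- IMQ replicate 2 stood apart from the rest: they lay lowest on the first principal component (−140.5 and −98.6, against −34.1 or higher elsewhere), had the highest mitochondrial shares (10.3% and 8.08%), and had low summed fibroblast genes (2012 and 9594 CPM, against 9962 to 52030 CPM in the others).

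Hair RNA was abundant in 4 of the 12 libraries, and these came from all 3 groups. The summed level of the 75 genes was 1313, 20.5 and 12.1 CPM in the controls. It was 4.19, 20830, 32.2, 52.0 and 3645 CPM in IMQ replicates 1 to 5, and 37.3, 1683, 17.9 and 17.3 CPM in Tcn2-/- IMQ replicates 1 to 4. One library in each of the control and Tcn2-/- IMQ groups and 2 in the IMQ group thus stood at 1313 CPM or more, and the other 8 at 52.0 CPM or less, so the groups overlapped. Within the IMQ group the highest library was 4971 times the lowest. These genes took 2.14% of all counts in IMQ replicate 2, and all 75 had a count there and in IMQ replicate 5, against 9 of 75 in IMQ replicate 1. Control replicate 1 and Tcn2-/- IMQ replicate 2, which stood apart above, are 2 of the 4 libraries with abundant hair RNA. The other 2, IMQ replicates 2 and 5, lay at −4.70 and 51.6 on the first principal component.

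**Figure D1:**
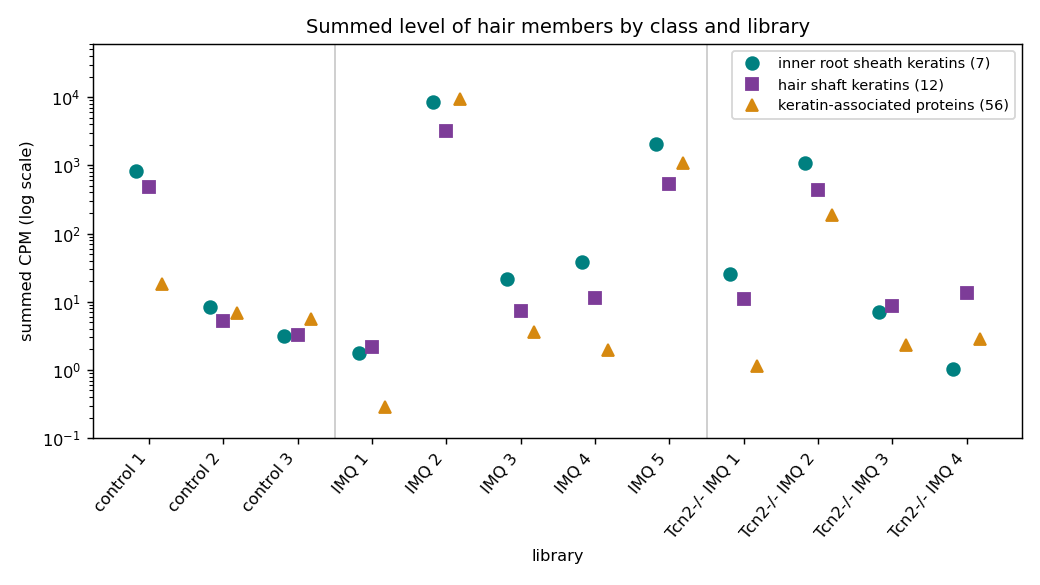
Summed CPM (log axis) of the inner root sheath keratins, shaft keratins and Krtap genes in each library, 1 point per class and library, with vertical lines between groups. IMQ replicate 2 stood highest in every class (8373, 3216 and 9238 CPM), and in control replicate 1 the Krtap sum of 18.5 CPM lay far under its keratin sums of 811.5 and 483.6 CPM.

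The inner root sheath keratins carried the largest share of the hair RNA in control replicate 1, Tcn2-/- IMQ replicate 2 and IMQ replicate 5. Krt71, the type II keratin of the sheath, had 2805, 44 and 1 counts in the controls, 3, 62049, 126, 200 and 15254 counts in the IMQ group, and 29, 4683, 41 and 0 counts in the Tcn2-/- IMQ group. Its type I partner Krt25 had 3923, 28 and 0 counts, then 0, 34098, 112, 145 and 8955 counts, then 47, 5022, 38 and 2 counts. The same 4 libraries were high for both genes, and each group spanned low and high libraries. Per kilobase of exon, Krt71 was the most abundant of the 75 genes in IMQ replicates 2 and 5 (1662 and 418 CPM per kb). Krt25 was the most abundant in Tcn2-/- IMQ replicate 2 (150.2 CPM per kb).

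Krt73, a keratin of the sheath cuticle, and Krt28 differed less between the 4 libraries. Krt73 had 4022 counts in control replicate 1, 8016 and 1979 in IMQ replicates 2 and 5, and 3368 in Tcn2-/- IMQ replicate 2. Krt28 had 1908, 4838, 1200 and 2751 counts in these libraries. Krt72, another sheath cuticle keratin, had 248, 5723, 1021 and 151 counts there and 0 in each of the other 8 libraries. Krt27 followed Krt71 and Krt25, with 1258, 23449, 4797 and 1638 counts.

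Shaft keratins in control replicate 1 were spread from 176.4% (Krt35) to 0.0143% (Krt81) of their level in IMQ replicate 2. Krt35, the first keratin of the shaft, had 7339, 10 and 5 counts in the controls, 0, 3901, 20, 63 and 779 counts in the IMQ group, and 114, 4077, 14 and 0 counts in the Tcn2-/- IMQ group. Control replicate 1 was thus highest, and the groups overlapped. Krt34, a cortex keratin, had 7, 0 and 0 counts in the controls, 0, 7412, 7, 0 and 935 counts in the IMQ group, and 0, 120, 3 and 0 counts in the Tcn2-/- IMQ group. Here IMQ replicate 2 was highest, and control replicate 1 held as few counts as IMQ replicate 3. Scaled to library size, Krt35 in control replicate 1 was at 176.4% of its level in IMQ replicate 2 and Krt34 at 0.0886% (exact 95% intervals 169.7% to 183.4% and 0.0356% to 0.183%). Such intervals cover counting error only, in 1 library each.

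Most other shaft keratins lay between these, and Krt81 lay lower. Krt36 in control replicate 1 was at 130.8% of its level in IMQ replicate 2, and the cuticle keratins Krt32 and Krt82 were at 25.6% and 5.21%. Cortex keratins were lower: Krt31 at 5.17%, Krt33a at 1.84%, Krt33b at 1.30%, Krt83 at 1.23%, Krt86 at 0.167% and Krt81 at 0.0143%. Krt81 rested on 1 count in control replicate 1 against 6569 in IMQ replicate 2. Tcn2-/- IMQ replicate 2 also had Krt35 and Krt36 highest (106.2% and 60.6% of IMQ replicate 2) and the cortex keratins Krt34 and Krt86 lowest (1.64% and 1.48%). In IMQ replicate 5 the 12 shaft keratins ranged only from 12.9% to 34.0%, and Krt35 (20.4%) stood near Krt83 (17.3%).

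Krtap RNA differed most. It made up 1.41% of the hair counts in control replicate 1, 11.3% in Tcn2-/- IMQ replicate 2, 29.7% in IMQ replicate 5 and 44.4% in IMQ replicate 2. The sheath keratin shares in the same order were 61.8%, 63.3%, 55.8% and 40.2%. For each count of a shaft keratin there were 0.0382, 0.442, 2.05 and 2.87 Krtap counts. All 56 Krtap genes were highest in IMQ replicate 2 and second highest in IMQ replicate 5, and for 53 of them Tcn2-/- IMQ replicate 2 came next. In control replicate 1, 23 of 56 had a count.

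Krtap7-1, classed here as high-sulfur, was the most abundant Krtap gene per kilobase in IMQ replicate 2 (1269 CPM per kb). It had 42, 0 and 1 counts in the controls, 0, 13455, 2, 0 and 1824 counts in the IMQ group, and 0, 554, 2 and 0 counts in the Tcn2-/- IMQ group. Krtap8-1, high in glycine and tyrosine, had 48, 0 and 0 counts, then 0, 10029, 2, 0 and 1353 counts, then 0, 543, 0 and 0 counts. Both genes had counts in control replicate 1, where they stood at 0.293% and 0.449% of IMQ replicate 2, above the cortex keratins Krt86, Krt34 and Krt81. Krtap4-1, an ultrahigh-sulfur gene, had 0 counts in every control, 0, 5761, 1, 0 and 513 counts in the IMQ group, and 0, 22, 3 and 0 counts in the Tcn2-/- IMQ group. Its level in control replicate 1 was at most 0.0601% of that in IMQ replicate 2 (upper end of the exact 95% interval).

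Other abundant Krtap genes had few or no counts in control replicate 1. Krtap15 had 10 counts in control replicate 1 and 10508 in IMQ replicate 2, Krtap1-5 had 9 and 7691, and Krtap9-1 had 3 and 3875. Krtap4-7, Krtap9-3, Krtap4-2, Krtap6-1, Krtap22-2, Krtap26-1 and Krtap16-3 had 0 counts in all controls, and Krtap21-1 had 4, all in control replicate 3. In all, 31 of 56 Krtap genes had no count in any control. In IMQ replicate 3, 27 Krtap genes had 1 to 4 counts each, while 53 of 56 had none in IMQ replicates 1 and 4 together. These few counts stand beside an IMQ replicate 2 library with 157737 Krtap counts, and whether reads passed between libraries was not tested. Krtap3-2 did not follow this pattern, with 4, 95 and 83 counts in the controls against 3218 in IMQ replicate 2.

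**Figure D2:**
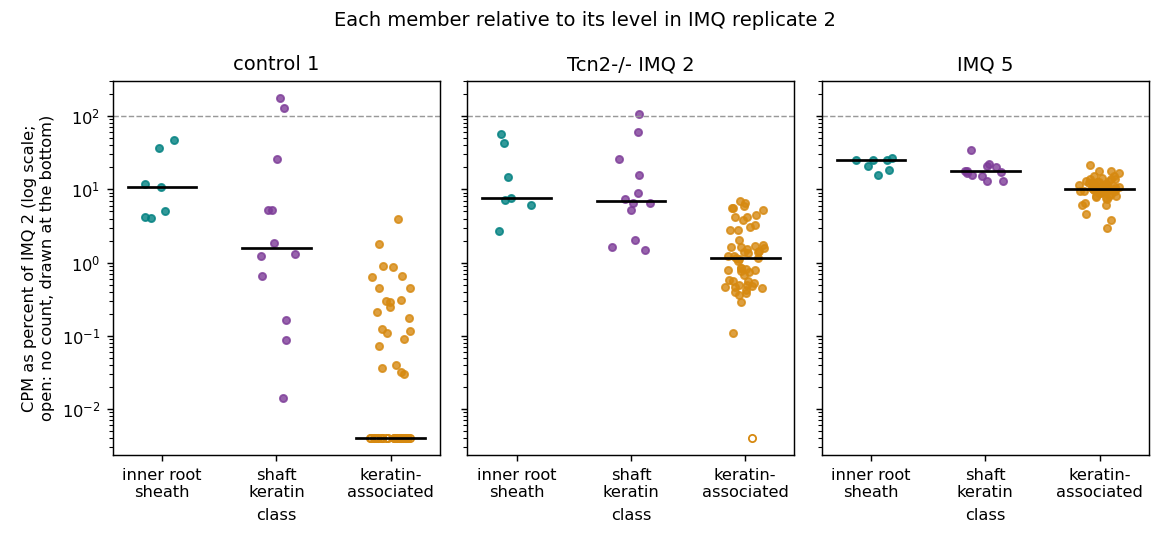
Level of each member in 3 libraries as a percent of its level in IMQ replicate 2 (log axis), by class; each point is 1 gene, the black line is the class median, open points had no count and are drawn at the bottom, and the dashed line is 100%. In control replicate 1 the class medians were 10.8% for sheath keratins, 1.56% for shaft keratins and 0% for Krtap genes, while in IMQ replicate 5 they were 25.1%, 17.6% and 10.2%.

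**Figure D3:**
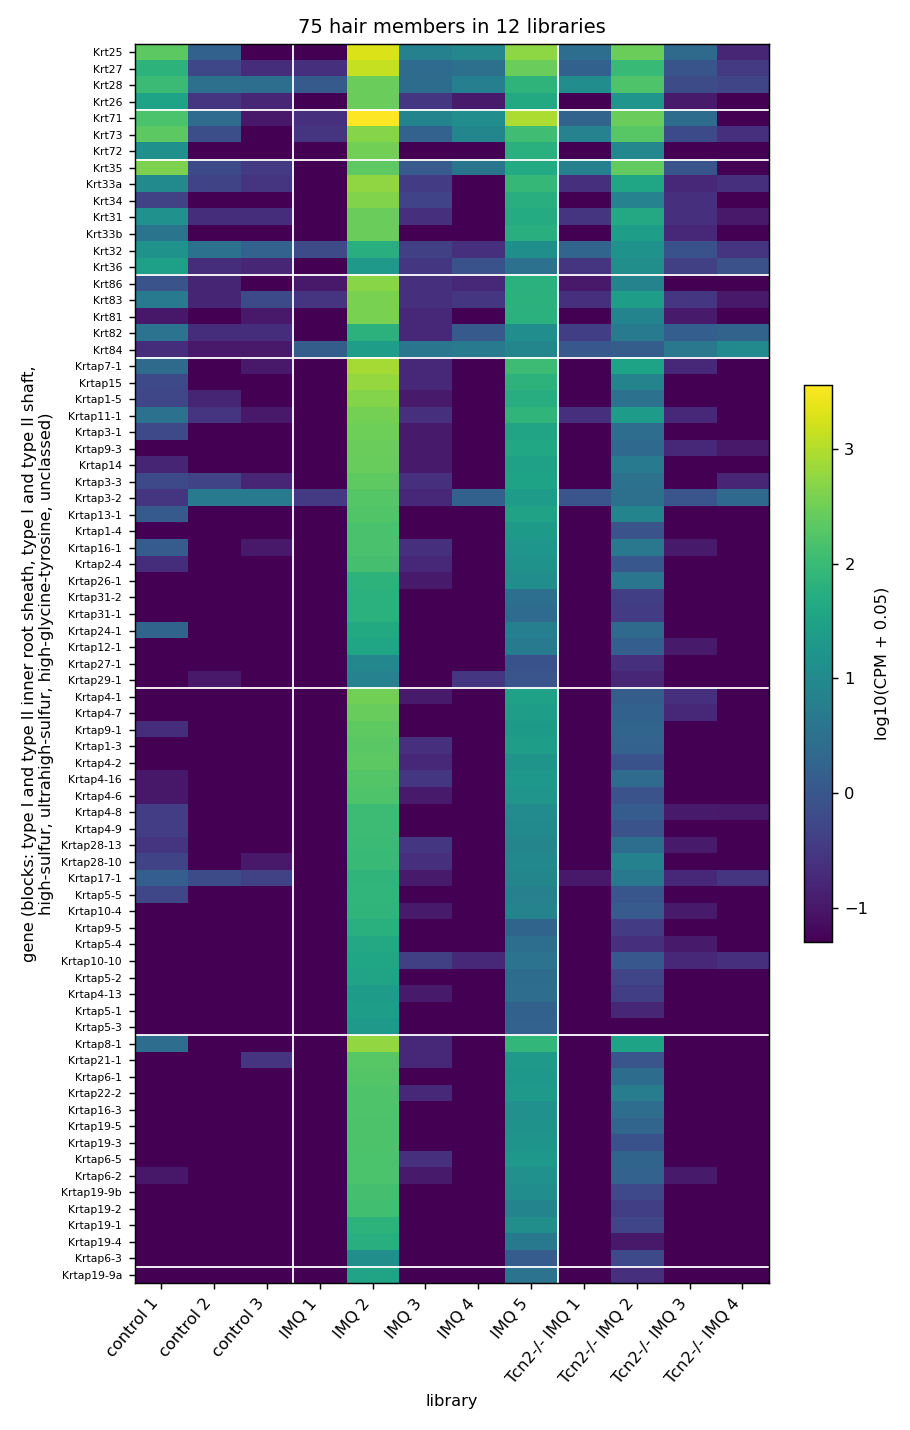
Levels of the 75 genes (rows, by class and mean level) in the 12 libraries (columns), as log10 of CPM plus 0.05. IMQ replicates 2 and 5 were bright in every row, Tcn2-/- IMQ replicate 2 in the upper blocks and less so below, and control replicate 1 mostly in the keratin blocks; Krt84 and Krtap3-2 broke the pattern.

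The first comparison asks whether IMQ induction in wild-type skin changed hair RNA. A total of 59 members passed the filter on low counts and 16 did not, and members could pass through the few libraries in which they were high. The 16 were all Krtap genes, each with a count in IMQ replicates 2 and 5. In the quasi-likelihood test of edgeR, adjusted by Benjamini-Hochberg over 18147 genes, 1 member was called higher, Krt84, and 0 lower. Over all genes tested, 0.694% were called higher and 0.535% lower. At an unadjusted p below 0.05, 36 of 59 members were higher and 0 lower, against 7.48% and 8.11% of all genes. Most members were high in the same few libraries, so these are not independent genes. Counted in either direction, such members numbered 1 without IMQ replicate 2 (28 tested) and 1 with sex or a muscle score as a further term. Without the filter they numbered 58 of 75, the most in any setting. The fitted log2 change was above 0 for 57 of 59 members, with a median of 8.10 (7.67 with the 16 genes that had no count in the controls set at their bound), against 0 over all genes. That median was 1.94 without IMQ replicate 2, 4.40 without IMQ replicate 5, 4.27 without Tcn2-/- IMQ replicate 2 and 4.26 in a fit of only these groups. Each of these fits tested 28 members rather than 59, so their medians cover fewer genes than 8.10 does.

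Krt84, a type II hair keratin known best from the filiform papillae of the tongue, did not follow the other members. It had 3, 1 and 1 counts in the controls, 22, 427, 67, 81 and 142 counts in the IMQ group, and 17, 22, 70 and 179 counts in the Tcn2-/- IMQ group. Every IMQ-induced library was above every control, those with little hair RNA included, and in IMQ replicate 1 and Tcn2-/- IMQ replicates 3 and 4 it was the most frequent of the 75 genes. The means were 0.0925 ± 0.0626 CPM (SD, n = 3) in the controls, 8.75 ± 9.45 CPM (SD, n = 5) in the IMQ group and 4.27 ± 4.37 CPM (SD, n = 4) in the Tcn2-/- IMQ group. Its log2 change was 6.45 ± 1.34 (SE, edgeR adjusted p = 0.0422) for IMQ against control. Krt84 was the only member whose libraries did not overlap between these groups, where 6.76% of all genes lay wholly higher. The call was lost in 11 of 22 other settings, while the log2 change stayed between 5.31 and 7.10 over all of them. In the quasi-likelihood test of edgeR these were the fits without any single control (adjusted p from 0.106 to 0.194), without IMQ replicate 3, 4 or 5 (0.0744, 0.0637 and 0.0891), without Tcn2-/- IMQ replicate 3 (0.0502) and without control replicate 1 and Tcn2-/- IMQ replicate 2 together (0.0924). The others had sex (0.0982), a muscle score (0.388) or the replicate number (0.191) as a further term. Controls 2 and 3 and IMQ replicate 1 carried Xist RNA and the other libraries Y-linked RNA, so sex was unevenly spread over the groups.

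No other member was called, although several fitted changes were larger. Krt71 differed by 4.13 ± 3.13 (SE) on the log2 scale (edgeR adjusted p = 0.554) and Krt25 by 2.82 ± 2.91 (adjusted p = 0.673). Krt34 differed by 9.48 ± 3.62 (adjusted p = 0.239), Krt86 by 8.44 ± 3.39 (adjusted p = 0.258), Krtap7-1 by 7.81 ± 3.69 (adjusted p = 0.334) and Krtap8-1 by 7.23 ± 3.62 (adjusted p = 0.360). Krt35 and Krt36 were the members with a change below 0, at −1.26 ± 2.38 and −0.87 ± 1.87 (adjusted p = 0.829 and 0.852). Against a floor of 3 counts over the controls, Krtap4-1 was at least 1337-fold higher in the pooled IMQ libraries, a value carried by IMQ replicate 2, and its adjusted p was 0.231. None of these passed the threshold, and the libraries of the groups overlapped for each. DESeq2 called 20 members higher, Krtap4-1 among them, and 0 lower, against 3.68% and 2.53% of all genes. Of the 20, only Krt81, Krt84, Krt86 and Krtap6-2 had any count in the controls. DESeq2 gave 2 members no adjusted p. Medians by class ran from 2.67 and 4.12 in type I and type II sheath keratins over 3.74 and 6.45 in shaft keratins to 8.68 in high-sulfur, 10.1 in ultrahigh-sulfur and 12.2 in high-glycine-tyrosine genes. The last 2 medians fall on Krtap10-10 and Krtap19-3, which had no count in the controls. Their fitted changes depend on the prior count, and at their bounds they were at least 146-fold and 638-fold higher. Class medians at the bound were not computed, so the order of the Krtap classes is uncertain.

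The second comparison asks what Tcn2 deficiency changed under IMQ. Of 59 members tested, 0 were called higher and 0 lower (edgeR, smallest adjusted p = 0.289), against 0.00551% and 0.022% of all genes. At an unadjusted p below 0.05, 29 were lower and 0 higher, against 6.16% and 5.67% of all genes. Most members were high in the same few libraries, so these are not independent genes. Counted in either direction, such members numbered 0 without IMQ replicate 2 (28 tested) and 0 with the muscle score. Without the filter they numbered 50 of 75, the most in any setting. DESeq2 called 0 higher and 0 lower, against 1.34% and 1.96% of all genes. The fitted change was below 0 for 58 of 59, with a median of −5.14 against 0.01 over all genes. That median was −1.37 without IMQ replicate 2 and −9.47 without Tcn2-/- IMQ replicate 2, and −1.65 in a fit of only these groups and −1.75 with the muscle score added. The fits without a library tested 28 members, that of only these groups 11 and that with the muscle score 59. The largest difference was that of Krtap4-2, −7.85 ± 2.85 (SE, edgeR adjusted p = 0.334). Krt71 differed by −3.69 ± 2.70 (adjusted p = 0.613), Krt35 by 0.16 ± 2.23 (adjusted p = 0.986) and Krt84 by −1.04 ± 0.83 (adjusted p = 0.647).

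The third comparison sets IMQ-induced Tcn2-/- skin against wild-type control skin. Again 0 members were called higher and 0 lower, against 0.579% and 0.733% of all genes, and at an unadjusted p below 0.05 there were 1 higher and 0 lower, against 5.98% and 6.78%. That gene was Krt84, at 5.41 ± 1.31 (SE, edgeR adjusted p = 0.0685). DESeq2 called 16 higher, all of them Krt84 or genes with no count in the controls, and 0 lower, against 2.88% and 2.9% of all genes, and gave 2 members no adjusted p. Krt84 was also the only member whose groups did not overlap, as 4.68% of all genes did in that direction. The member median was 2.52 (2.33 with 16 genes at their bound) with a sign that differed between settings. It was −4.58 without Tcn2-/- IMQ replicate 2, −0.40 with the replicate number as a block, 0.06 in a fit of only these groups and 0 without control replicate 1 and Tcn2-/- IMQ replicate 2. These fits tested 28, 59, 13 and 75 members in that order. Krt71 and Krt25 differed by 0.44 ± 2.70 and 0.07 ± 2.68 (adjusted p = 0.969 and 0.996). These comparisons share libraries with the first and second.

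**Figure D4:**
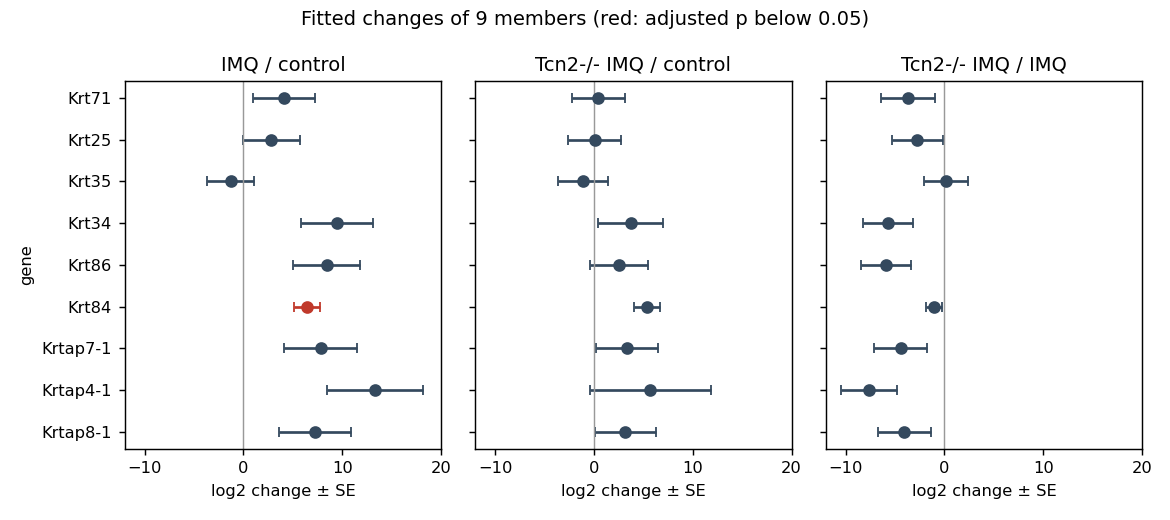
Fitted log2 change with its standard error for 9 members in the 3 comparisons, red where the adjusted p was below 0.05. Krt84 had the smallest error (1.34 in IMQ against control) and was the only red point; the value of Krtap4-1, which had no count in the controls, depends on the prior count.

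The hair genes varied widely within groups when the spread was pooled over the 3 groups. In the controls alone the Krtap sum spanned only 3.25-fold, and 31 of 56 Krtap genes had no count there. Members could pass the filter through the few libraries in which they were high, so a wide spread was partly built into those tested. The pooled SD of log2 CPM within groups had a median of 3.58 over the 59 members tested, against 0.48 over all 18147 genes. Of the 59, 58 were above the 95th percentile of all genes (1.41), and Krt84, at 1.35, was below it. Of the 75 most variable genes in the table, 47 were members. The median biological coefficient of variation fitted per gene was 2.58 for members and 0.356 for all genes.

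Some genes that act with the hair keratins followed the same libraries, and none was called in a comparison. Of 14 listed, 6 had the 4 libraries with abundant hair RNA as their highest. Liph, which encodes a lipase needed for normal hair, did not, with 54.6 CPM in control replicate 2 and 22.2 CPM in control replicate 1, and neither did Hephl1, Gsdma and Crym. Tchh, which encodes trichohyalin, the matrix protein of the sheath, stood at 174.5, 13.9 and 9.30 CPM in the controls. It stood at 29.7, 4778, 30.7, 27.7 and 989.5 CPM in the IMQ group and 8.31, 181.3, 40.1 and 16.1 CPM in the Tcn2-/- IMQ group. The order of its 4 highest libraries was that of the summed hair genes. S100a3, a calcium-binding protein of the hair cuticle, was at 83.0 CPM in control replicate 1, 218.4 and 46.4 CPM in IMQ replicates 2 and 5, 85.4 CPM in Tcn2-/- IMQ replicate 2 and 1.72 CPM or less elsewhere. Of 14 listed partners 13 were tested, and 11, 0 and 5 had a change above 0 in the 3 comparisons in the order above. Their medians were 1.49, −1.51 and −0.22, against 0, 0.01 and 0.01 over all genes.

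Of 14 regulators of the hair matrix, 5 had these 4 as their highest libraries. So had 1 of 17 growth signals (a list that holds Shh), 1 of 17 dermal papilla genes, 5 of 14 pigment genes and 0 of 18 bulge genes. The share over all genes was not computed for these counts or for the partners above. Hoxc13, a homeobox factor required for hair keratin expression, stood at 72.9 CPM in control replicate 1, 71.3 CPM in Tcn2-/- IMQ replicate 2, 51.6 CPM in IMQ replicate 2 and 18.3 CPM in IMQ replicate 5, and at 2.68 to 5.67 CPM in the other 8. Lef1, a Wnt effector, was at 77.2, 65.0, 22.7 and 7.79 CPM in these libraries, and Shh, the hedgehog ligand of the matrix, at 48.3, 61.6, 9.78 and 4.07 CPM. Lef1 and Shh were higher in Tcn2-/- IMQ replicate 1 (8.49 and 5.05 CPM) than in IMQ replicate 5. IMQ replicate 2 was the highest library for Dlx3 (144.9 CPM), Foxn1 (46.3 CPM), Vdr (227.1 CPM), Cux1 (173.6 CPM) and Foxq1 (29.7 CPM). Prdm1 did not follow these libraries, being lowest in control replicate 1 (20.5 CPM). Of 14 matrix factors and 17 growth signals tested, 0 were called in any comparison. The factor medians were −0.34, −0.07 and −0.41 and the signal medians −0.37, 0.27 and −0.06.

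Of 17 listed dermal papilla genes, 11 were highest in control replicate 1, as were 13 of 14 pigment genes and the summed pigment genes. The other papilla genes were highest in other libraries. Crabp1 was highest in IMQ replicate 5 (90.8 CPM), and Rspo4 was lowest in control replicate 1 (0.165 CPM). Corin, a protease of the dermal papilla, was at 77.8 CPM in control replicate 1, 19.6 CPM in Tcn2-/- IMQ replicate 2, 9.43 and 5.75 CPM in IMQ replicates 2 and 5 and 0.291 to 2.75 CPM elsewhere. Rspo2, a Wnt enhancer, was at 27.8 CPM there and at 2.85 CPM or less in the other libraries. Pmel, a melanosome protein, was at 287 CPM there, 71.0 CPM in Tcn2-/- IMQ replicate 2 and 54.8 CPM in IMQ replicate 2. Of 16 papilla and 14 pigment genes tested, 0 were called in any comparison. The summed cell cycle genes were 1917 CPM in control replicate 1 and 2843 CPM in Tcn2-/- IMQ replicate 2, and 729 to 1639 CPM in the other libraries. How far these other markers, mitochondrial share or fibroblast content account for the keratin to Krtap differences between libraries was not tested.

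**Figure D5:**
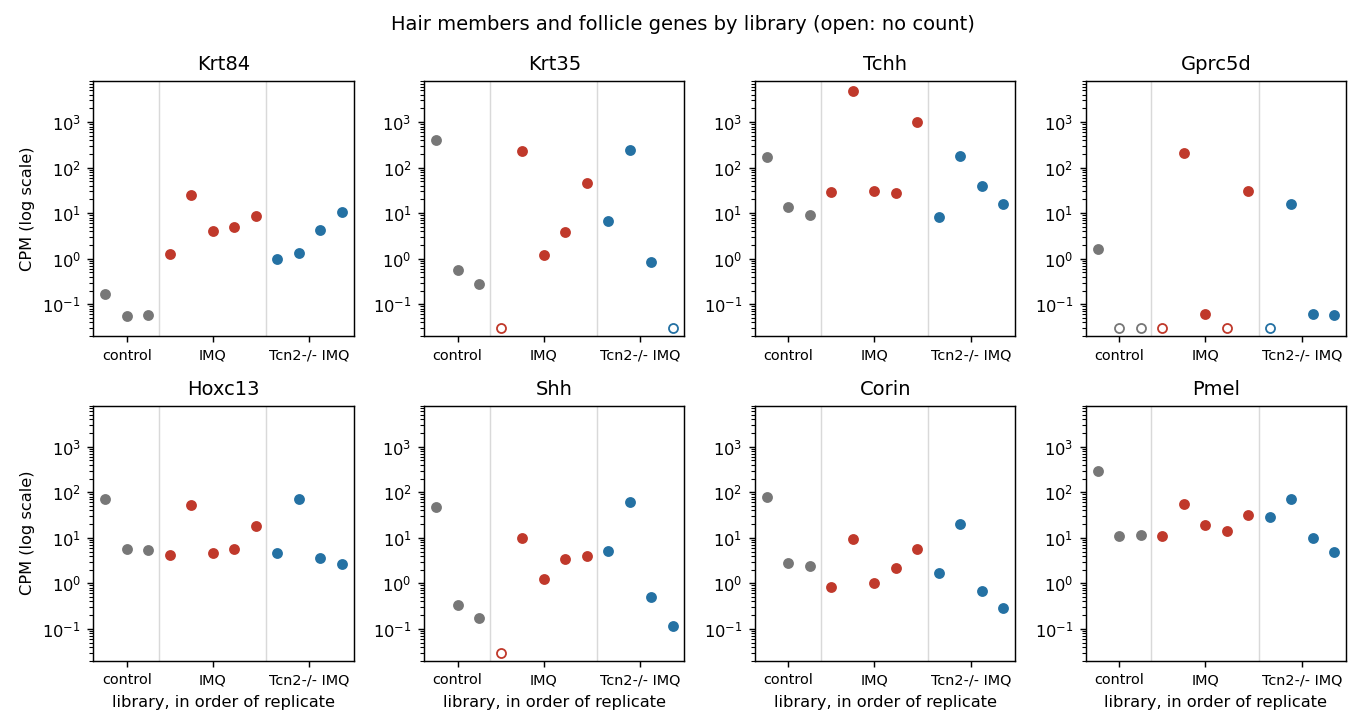
CPM (log axis) per library, in order of replicate, for 2 hair keratins and 6 follicle genes, coloured by group; open points had no count and are drawn at the bottom. Krt84 separated the controls from all other libraries, Tchh and Gprc5d were highest in IMQ replicate 2, and Hoxc13, Shh, Corin and Pmel were highest in control replicate 1 or Tcn2-/- IMQ replicate 2.

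Keratins outside the hair set did differ between groups. In IMQ against control, Krt15, a keratin of the follicle's bulge and of basal cells, and Krt24, listed with it, fell by 2.69 and 6.02 on the log2 scale (SE 0.431 and 0.791, edgeR adjusted p = 0.0166 and 0.00666). They were the only 2 called of 18 genes of the bulge and of quiescence. Krt15 was measured at 597.1, 999.1 and 644.3 CPM in the 3 controls but at 76.8, 179.8, 86.8, 87.1 and 148.9 CPM in the IMQ group, so the groups did not overlap and control replicate 1 was like the other controls. Of 19 other keratins tested, 4 rose, among them the stress keratins Krt16 (7.05 ± 1.20, adjusted p = 0.0223) and Krt6b (9.11 ± 1.70, adjusted p = 0.0317), and Krt77 fell by 7.17 (SE 1.13, adjusted p = 0.0148). In Tcn2-/- IMQ against IMQ, Krt24 differed by 4.97 ± 0.76 (adjusted p = 0.0644).

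The genes most like the hair members lay mostly beside them. Over 12 libraries, the 15 genes with the highest Pearson correlation to the mean log2 CPM of tested members had r from 0.975 to 0.995. These values describe libraries that share depth and hair content. Of the 15, 13 lay within 200 kb of a member and 8 inside a member cluster, and none overlapped a member. Gm47969 on chromosome 1 (83022653 to 83023667) was the most alike (r = 0.995), 2.5 kb from Krtap28-10, and A030005K14Rik (83036007 to 83037099, r = 0.991) lay 1.6 kb from Krtap28-13. Most are gene models without a name of function, and near-identical copies can share reads. The exceptions to the neighbourhood were Lyg2, a lysozyme-like gene 45063.7 kb from the nearest member, and Gprc5d, an orphan receptor known from hair follicles, on a chromosome without members. Gprc5d stood at 1.65 CPM in control replicate 1, 211.5 and 30.8 CPM in IMQ replicates 2 and 5, 15.8 CPM in Tcn2-/- IMQ replicate 2 and 0.0618 CPM or less elsewhere. Within the set, Krtap15 was closest to the mean (r = 0.998) and Krt84 farthest (r = 0.487), followed by Krt35 (0.768), Krtap3-2 (0.772) and Krt36 (0.775).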

How the data were processed

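The deposited values are whole-number read counts per gene, not normalized by the authors, on build GRCm39 according to the submitters' processing notes. Aligner, counter, annotation and strandedness are unstated in the sources used here, so reads of overlapping genes (Krtap15 with Krtap14, Krtap10-4 and Krtap10-10 with Tspear) and of near-identical Krtap copies can be assigned to the wrong gene. Per the labels' protocols, libraries came from oligo(dT) capture, random priming and PCR, with no molecular identifiers. Groups and replicate numbers came from sample titles, and 0 columns stayed unmapped.

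The analysis used edgeR 4.0.16 in R 4.3.3: filterByExpr over the 3 groups (18147 genes kept), TMM factors (0.927 to 1.11), 1 quasi-likelihood fit to 12 libraries and Benjamini-Hochberg adjustment, with calls at an adjusted p below 0.05. Log2 CPM used a prior count of 2. Alternatives used limma 3.58.1 and DESeq2 1.42.0. The fit was also run on simulated counts in which randomly picked genes were changed. Its outcome is not given here, and nothing is drawn from it for the hair members. Members, lists, tests and settings were chosen with earlier results of these data known. The members named are the 3 with the highest mean CPM of each class, those called, and the 3 with the largest change in each comparison. For each list, called genes or those of smallest p could be named; others shown (Krt31, Krt32, Krt33b, Krt36, Krt82, Krtap3-2, Tchh, S100a3, Gprc5d, Hoxc13, Lef1, Shh, Corin and Pmel among them) were picked after their values were seen. Some genes that the rule picks are left out. The TATA window, the order of the class rules and 1 alternative (see the closing part) were also added then. Promoters came from RefSeq (GRCm38.p6) and were matched by Entrez gene number first and otherwise by symbol. Library ratios carry exact 95% intervals from counts.

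Replicate numbers are shared between groups, but same-numbered libraries did not consistently deviate together, so the libraries were not treated as paired.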

Additional observations from a re-analysis of the deposited data

Results flagged for a closer look

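On the linear CPM scale, 1 library in each IMQ-induced group stood far above the others in nearly every hair sum or gene tested. The gap to the next library, as a share of the group's range, was above Dixon's 95% critical value (0.710 for 5 libraries, 0.829 for 4) in 24 of 26 tests of 4 sums and 9 genes. Dixon's values flag about 1 in 20 groups of normally distributed data. Linear CPM spanned 4971-fold for the summed members of the IMQ group, so that rate does not hold here. These tests also share the same libraries and are not independent. The mean log2 CPM of tested members was 7.65 in IMQ replicate 2, 4.77 in IMQ replicate 5 and −1.80 or lower in the other IMQ libraries. It was 2.53 in Tcn2-/- IMQ replicate 2 and −2.14 or lower in the rest of that group. The log2 scale was not tested. In the IMQ group the library was replicate 2: the share was 0.825 for all members summed, 0.757 for sheath keratins, 0.836 for shaft keratins and 0.883 for Krtap genes. For single genes it was 0.749 for Krt71, 0.731 for Krt25, 0.796 for Krt35, 0.871 for Krt34, 0.872 for Krt86, 0.861 for Krtap7-1, 0.909 for Krtap4-1 and 0.862 for Krtap8-1. In the Tcn2-/- IMQ group it was replicate 2 as well, with 0.988 for all members, 0.977 for sheath keratins, 0.989 for shaft keratins and 0.991 for Krtap genes. Single genes had 0.991 for Krt71 and Krt25, 0.972 for Krt35, 0.974 for Krt34, 0.992 for Krt86, 0.996 for Krtap7-1, 0.858 for Krtap4-1 and 1 for Krtap8-1. Krt84 passed the critical value in neither group. The controls, with 3 libraries, were not tested.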

How the results depend on the processing

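Of 22 other settings, the count of members called higher for IMQ against control was 0 with a muscle score or sex as a covariate and without control replicate 1 and Tcn2-/- IMQ replicate 2 together (a setting chosen after seeing the data), and 20 with DESeq2, against 1. Leaving out 1 library at a time gave 0 to 1. For Tcn2-/- IMQ against control it was 16 with DESeq2 and 1 with voom quality weights, against 0, and 0 to 1 on leaving out 1 library. No setting called a member lower in any comparison, or higher for Tcn2-/- IMQ against IMQ. The member median for IMQ against control (8.10) was 4.26 in a fit of only these groups, where 28 members were tested, and 1.94 to 10.8 on leaving out 1 library. For Tcn2-/- IMQ against IMQ (−5.14) it was −10.5 without the same 2 libraries, −1.75 with the muscle score, −1.65 in a fit of only these groups and −9.47 to −1.37 on leaving out 1. For Tcn2-/- IMQ against control (2.52) it was −4.58 to 5.32, the lowest value being that without Tcn2-/- IMQ replicate 2, −0.40 with the replicate block and 0.06 in a fit of only these groups. Fits of only these groups tested 11 members for Tcn2-/- IMQ against IMQ and 13 for Tcn2-/- IMQ against control. Fits that left out 1 library tested 28, 59 or 75 members, so these medians cover different genes. The causes were not tested, beyond the fewer samples or genes named.

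With the replicate number as a block, 4 members were called for IMQ against control (Krtap1-3, Krtap22-2, Krtap4-2 and Krtap6-5) and Krt84 was not, and the median was 4.55. Same-numbered libraries correlated at −0.53 to 0.42, above 0.1 in 5 of 10 pairs. Differently numbered libraries were not correlated for comparison, so whether the numbers pair the samples is not settled. Depth limits Krtap genes in the low libraries: a count of 0 allows a level of up to 0.165 to 0.185 CPM there.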
